A study of Bos taurus with 6 samples.

Results

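Muscle is held together by an extracellular matrix, and the genes described here encode its parts other than collagen and the enzymes that shape it. The set lists 39 genes. Among them are genes of matricellular and adhesive proteins, proteoglycans, elastic fibre proteins, and enzymes and chaperones of collagen maturation. The others encode proteases with their inhibitors, laminins with nidogen, and the actin-severing protein gelsolin. All 39 genes were chosen by name. A gene counted as measured where the array holds a probe set annotated with that symbol alone, and the probe set with the highest mean over the 6 arrays stood for the gene. By this rule 37 of the 39 genes were measured, with 62 probe sets, out of 9155 genes with 24016 probe sets on the whole array. LAMA2 and LOXL2 had no such probe set and are not analysed here.

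RNA came from the longissimus thoracis, a long muscle of the back, of castrated males of the Japanese Black beef breed, with 1 array per animal. All animals were fattened for 7 months from 13 to 14 months of age, on feed planned for a gain of 1.0 kg a day. The 3 supplemented steers were given 296.8 IU of vitamin A per kg of body weight by mouth each week, and the 3 restricted steers had their vitamin A intake restricted and were not given this dose. Ages at sampling were 600 to 618 days in supplemented and 589 to 611 days in restricted steers.

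Fibroblasts and fibro-adipogenic progenitors, the resident connective tissue cells between the fibres, make most of this matrix, and muscle fibres anchor to it through a basement membrane of laminin. Fibrillar collagen is processed outside the cell, spaced by small leucine-rich proteoglycans and crosslinked by lysyl oxidases, and matrix metalloproteinases and their tissue inhibitors set its turnover. CCN2, also called connective tissue growth factor, is a matricellular protein that is switched on by transforming growth factor beta and by mechanical strain through the Hippo pathway. Retinoic acid, the active form of vitamin A, is known to act on fibroblasts through nuclear receptors.

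The deposited values run from 4.81 to 12.67 over the tested probe sets and were read as log2. They differed very little between animals, with a median range of 6.77e-07 per probe set over the 6 arrays. How so narrow a spread arose is unknown, so no difference is read as a fold change. Standard deviations (SDs) of 2 kinds are used in its place. A steer's own value is given as its deviation from the mean of the 6 arrays, in SDs of that probe set over the 6 arrays ("array SDs"). A difference between the diets, always restricted minus supplemented, is given in SDs within a diet ("within-diet SDs"). Of 9 measured markers of muscle fibres, 9 lay above the median level of all probe sets, at 9.71 to 12.67. In a bulk sample fewer cells of a type and less RNA per cell cannot be told apart. Supplemented steers 1 and 2 stood apart in the matrix genes, steer 1 at the high end and steer 2 at the low end. Counts of direction are therefore given with and without each.

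The diets did not separate the matrix genes as a set. In restricted steers 19 of 37 genes had a lower mean and 18 a higher one, 51.4% lower beside 50.5% of all genes. The median difference was -0.0515 within-diet SDs, beside -0.00788 over all genes. None of the 37 genes passed the threshold of 0.05 in the limma fit adjusted over all probe sets, where 1 probe set in all did (0.00416%), and the count was also 0 with a mean-variance trend in the fit. At an unadjusted p under 0.05, 1 gene was lower, CCN2, beside 2.17% of all probe sets, and 1 was higher, LAMB1, beside 1.91%. The groups did not overlap in the same 2 genes, which is 5.41% of the set, beside 8.76% of all probe sets. These shares are near those of the whole array.

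CCN2 had the widest separation of the set. Its deposited values were 6.519495, 6.519513 and 6.519509 in supplemented steers 1, 2 and 3, and 6.519441, 6.519453 and 6.519430 in restricted steers 1, 2 and 3. The diets did not overlap, with every restricted animal low, and the spread within each diet was small, with an SD of 9.14e-06 in supplemented and 1.15e-05 in restricted steers (n = 3 each). The difference was -6.44e-05 (SE 7.99e-06) log2 units or -6.22 within-diet SDs (limma unadjusted p = 7.83e-04, adjusted p = 1). With any single steer left out it ran from -8.08 to -5.35 within-diet SDs. CCN2 has 1 probe set on the array. It is also an immediate early type of gene. Among 13 measured immediate early genes 10 had a lower mean in restricted steers, with list scores of -0.29 to 0.52 array SDs in supplemented and -1.06 to 0.60 in restricted steers, and their part in the CCN2 value was not tested. Its close relative CCN1 had a difference of -0.72 within-diet SDs (unadjusted p = 0.399), with supplemented steer 3 at -0.82 and restricted steer 2 at 0.79 array SDs, so that the groups overlapped.

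LAMB1, the laminin beta 1 chain of basement membranes, went the other way. Its values were 5.468588, 5.468580 and 5.468587 in supplemented and 5.468590, 5.468594 and 5.468593 in restricted steers 1, 2 and 3. The groups did not overlap, but the nearest animals, supplemented steer 1 and restricted steer 1, were close together and supplemented steer 2 was lowest by far. The difference was 7.62e-06 (SE 2.55e-06) log2 units or 2.31 within-diet SDs (limma unadjusted p = 0.0349, adjusted p = 1). Its unadjusted p rose above 0.05 without supplemented steer 3 (0.0599) and without restricted steer 1 (0.0502), 2 (0.0999) or 3 (0.0979), and was 0.107 with age as a covariate.

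**Figure D1:**
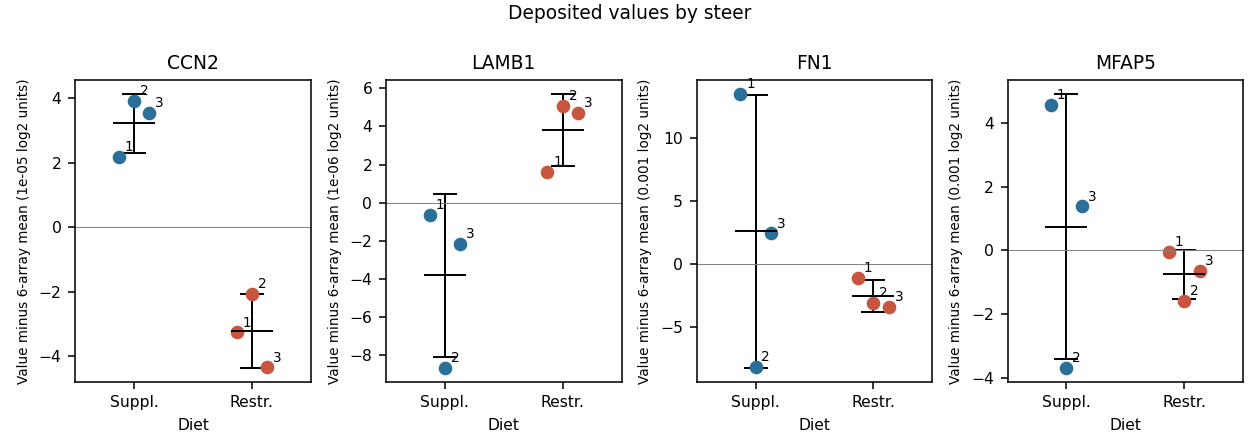
Deposited log2 values of CCN2, LAMB1, FN1 and MFAP5 in each steer, as the value minus the mean of the 6 arrays, by diet; numbers are the steers, horizontal bars the mean and error bars the SD of the 3 steers. Each panel has its own scale. The diets do not overlap in CCN2 and LAMB1, while in FN1 and MFAP5 supplemented steers 1 and 2 enclose all others.

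Samples of the same diet held most of the extremes among the matrix genes. Each steer has 1 RNA sample on 1 array, so animal, tissue piece and array cannot be told apart. Supplemented steer 1 had the highest value in 26 of 37 genes (70.3%), beside 15.1% of all genes. Supplemented steer 2 had the lowest value in 21 of 37 (56.8%), beside 16.4% of all genes. Steer 1 lay above steer 2 in 34 of 37 genes, beside 47.3% of all genes, and the exceptions were CCN2, PLOD1 and P4HA1. Both extremes met in 15 genes, 40.5% of the set and 3.12% of all genes. In the 25 further probe sets of these genes, which the rule did not use, steer 1 lay above steer 2 in 22, but it was the highest animal in only 8 and steer 2 the lowest in 7, and both extremes met in 1. The extremes were thus rarer in these probe sets than in those that stood for the genes. Steer 1 was highest in 32% of them and steer 2 lowest in 28%, and both extremes met in 4%. The rule takes the highest mean, so the further probe sets of a gene are those of lower level. The part of level in this contrast was not tested. Averaged over the 37 genes, the deviation was 1.14, -0.83 and -0.11 array SDs in supplemented steers 1, 2 and 3 and 0.26, -0.47 and 0.01 in restricted steers 1, 2 and 3. The restricted animals thus lay inside the range of the supplemented ones. The SD was larger among supplemented than among restricted steers in 31 of 37 genes (83.8%), with a median ratio of 1.88, beside 52.6% of all genes and a median ratio of 1.06. Matrix genes share their 6 RNA samples, so these counts describe the samples and have no test.

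**Figure D2:**
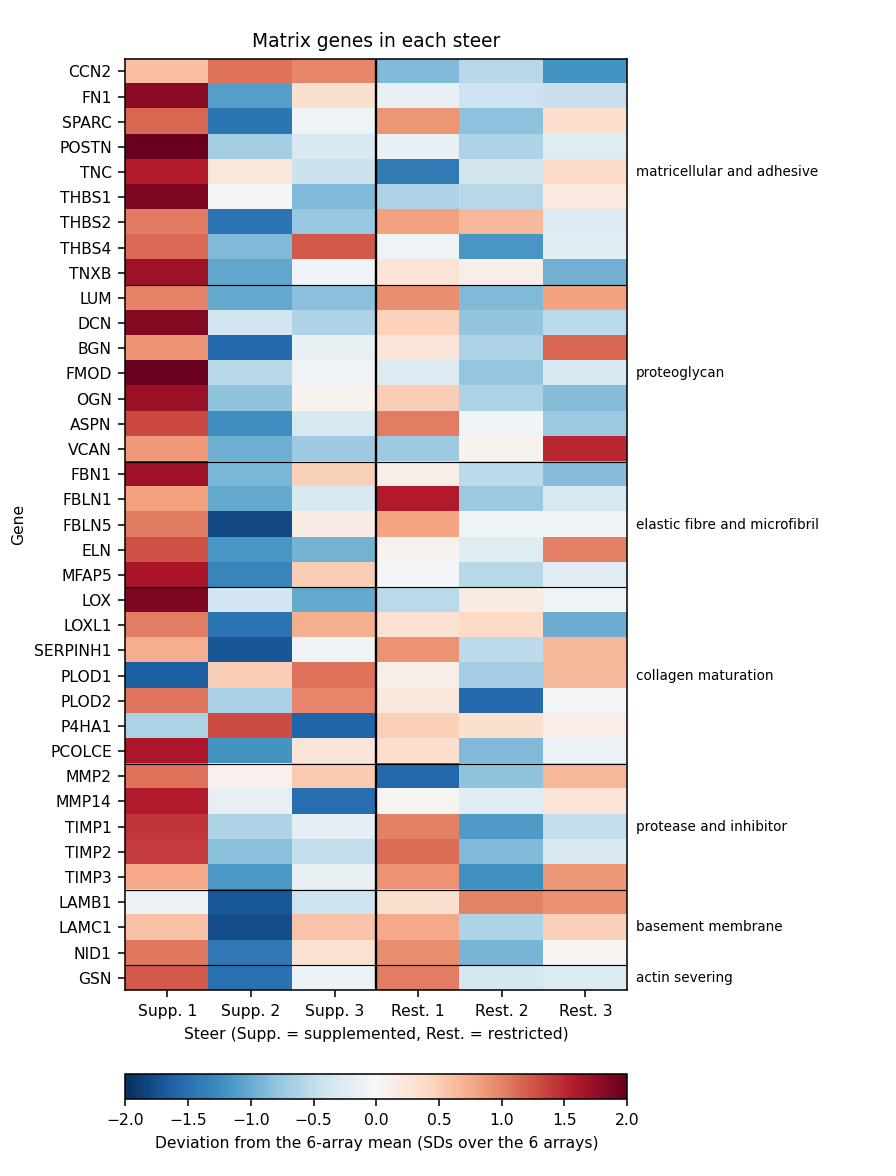
Deviation of each steer from the mean of the 6 arrays, in SDs over the 6 arrays, for the 37 measured matrix genes (rows, by role) in 3 supplemented and 3 restricted steers (columns); red is above and blue below the mean. Supplemented steer 1 is highest in 26 rows and supplemented steer 2 lowest in 21, and CCN2 is the row in which the diets separate most.

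Among matricellular and adhesive proteins 7 of 9 genes had a lower mean in restricted steers, with a median of -0.643 within-diet SDs, and 1, CCN2, had an unadjusted p under 0.05. Without supplemented steer 1 the count was 3 of 9, where FN1, POSTN, THBS1 and TNXB turned to higher, and without supplemented steer 2 it was 8 of 9. FN1 encodes fibronectin, the fibrillar scaffold on which other matrix proteins assemble. Its deposited values were 6.664801, 6.643103 and 6.653733 in supplemented and 6.650207, 6.648229 and 6.647880 in restricted steers 1, 2 and 3. The restricted animals lay together, and supplemented steers 1 and 2 lay on either side of them, so that the difference of -5.11e-03 (SE 5.96e-03) log2 units or -0.66 within-diet SDs was within the spread (unadjusted p = 0.435). A further FN1 probe set differed by 0.0315 within-diet SDs, and its range of 4.95e-07 was far narrower.

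THBS1, a thrombospondin that activates latent transforming growth factor beta, stood at 1.87, -0.02 and -0.88 array SDs in supplemented and -0.62, -0.55 and 0.20 in restricted steers 1, 2 and 3. Supplemented steer 1 alone was high, and the difference was -0.62 within-diet SDs (unadjusted p = 0.463). Of its 6 probe sets 4 were lower and 2 higher in restricted steers. TNC, or tenascin C, which is found at muscle-tendon junctions and in regenerating muscle, stood at 1.59, 0.22 and -0.43 in supplemented and -1.41, -0.36 and 0.38 in restricted steers, and differed by -0.95 within-diet SDs (unadjusted p = 0.294). Here too supplemented steer 1 was highest, and the groups overlapped. SPARC, or osteonectin, a collagen-binding protein, stood at 1.15, -1.46 and -0.08 in supplemented and 0.88, -0.82 and 0.33 in restricted steers, and differed by 0.23 within-diet SDs (unadjusted p = 0.774). Its highest and lowest animals were both supplemented. POSTN, or periostin, was at 1.99 array SDs in supplemented steer 1 and between -0.68 and -0.14 in the other animals. Its mean level was low, above only 13.5% of all probe sets. THBS4, a thrombospondin of tendon and muscle, was highest in supplemented steers 3 and 1, at 1.23 and 1.13, and differed by -1.05 within-diet SDs (unadjusted p = 0.239). THBS2 and TNXB, or tenascin X, differed by 0.79 and -0.34 within-diet SDs, and both were highest in supplemented steer 1 and lowest in supplemented steer 2.

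The proteoglycans, most of which bind collagen fibrils or growth factors, had 3 lower and 4 higher means among 7 genes. None had an unadjusted p under 0.05. The lower means numbered 1 without supplemented steer 1 and 5 without steer 2. DCN, or decorin, which binds collagen and transforming growth factor beta, had values of 8.352830, 8.350919 and 8.350705 in supplemented and 8.351635, 8.350547 and 8.350764 in restricted steers 1, 2 and 3. Steer 1 was the highest of its diet in both groups, and the difference was -0.54 within-diet SDs (unadjusted p = 0.515). LUM, or lumican, stood at 0.99, -1.02 and -0.83 array SDs in supplemented and 0.93, -0.88 and 0.81 in restricted steers, and differed by 0.54 within-diet SDs (unadjusted p = 0.517). High and low animals occurred in both diets. FMOD, or fibromodulin, was at 1.98 in supplemented steer 1 and between -0.78 and -0.07 in the other 5 animals, and differed by -0.93 within-diet SDs. OGN (osteoglycin), ASPN (asporin), BGN (biglycan) and VCAN (versican) differed by -0.64, 0.13, 0.49 and 0.53 within-diet SDs. Restricted steer 3 was the highest animal in BGN and VCAN, and supplemented steer 1 in the other 5 proteoglycans.

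In all 5 genes of elastic fibres and microfibrils supplemented steer 2 was the lowest animal, and in 4 of them supplemented steer 1 was the highest. The mean was lower in restricted steers in 2 of the 5, in 1 without supplemented steer 1 and in 4 without steer 2. FBN1, or fibrillin 1, the main microfibril protein, stood at 1.70, -0.92 and 0.47 array SDs in supplemented and 0.14, -0.53 and -0.86 in restricted steers 1, 2 and 3, and differed by -0.84 within-diet SDs (unadjusted p = 0.329). ELN, or elastin, stood at 1.28, -1.17 and -0.95 in supplemented and 0.07, -0.24 and 1.01 in restricted steers, and differed by 0.52 within-diet SDs (unadjusted p = 0.532). In both genes the supplemented animals enclosed the restricted ones. MFAP5, a microfibril-associated glycoprotein, had values of 6.596738, 6.588520 and 6.593577 in supplemented and 6.592148, 6.590632 and 6.591571 in restricted steers, a difference of -0.50 within-diet SDs (unadjusted p = 0.547). FBLN1, where restricted steer 1 was highest at 1.59 array SDs, and FBLN5, 2 fibulins that link elastic fibres to other matrix, differed by 0.32 and 0.38 within-diet SDs.

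Collagen maturation genes followed the same order of animals less evenly: supplemented steer 1 was highest in 4 of 7 and supplemented steer 2 lowest in 3. With 4 lower and 3 higher means, none had an unadjusted p under 0.05, and 2 were lower without steer 1 and 4 without steer 2. LOX, the lysyl oxidase that starts collagen and elastin crosslinks, stood at 1.87, -0.39 and -1.02 array SDs in supplemented and -0.54, 0.17 and -0.08 in restricted steers 1, 2 and 3, and differed by -0.28 within-diet SDs (unadjusted p = 0.735). Supplemented steer 1 alone was high. SERPINH1, the collagen chaperone HSP47, stood at 0.73, -1.71 and -0.07 in supplemented and 0.90, -0.52 and 0.67 in restricted steers, and differed by 0.68 within-diet SDs (unadjusted p = 0.421). Supplemented steer 2 was the low animal there. PCOLCE, which speeds removal of the procollagen C-propeptide, was at 1.61 and -1.20 in supplemented steers 1 and 2, and differed by -0.41 within-diet SDs. The lysyl oxidase relative LOXL1 differed by -0.17 and the lysyl hydroxylase PLOD2 by -0.96 within-diet SDs.

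PLOD1 and P4HA1, which hydroxylate lysine and proline of new collagen chains inside the cell, broke the order. PLOD1 was lowest in supplemented steer 1, at -1.64 array SDs, and differed by 0.05 within-diet SDs. Its other probe set was higher in restricted steers without overlap, by 1.93 within-diet SDs (unadjusted p = 0.122). P4HA1 was highest in supplemented steer 2, at 1.30, and lowest in supplemented steer 3, at -1.60, and differed by 0.59 within-diet SDs.

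Proteases and their inhibitors had 3 lower and 2 higher means among 5 genes, with 1 lower without supplemented steer 1 and 5 without steer 2. MMP2, or gelatinase A, stood at 1.08, 0.09 and 0.52 array SDs in supplemented and -1.57, -0.80 and 0.67 in restricted steers 1, 2 and 3. Restricted steers 1 and 2 were below all supplemented animals and restricted steer 3 among them, and the difference was -1.28 within-diet SDs (unadjusted p = 0.165), the next in size after CCN2 and LAMB1. MMP14, the membrane protease that activates the MMP2 proenzyme, differed by 0.05 within-diet SDs. The inhibitor TIMP1 stood at 1.43, -0.62 and -0.19 in supplemented and 1.01, -1.13 and -0.49 in restricted steers, and differed by -0.38 within-diet SDs (unadjusted p = 0.645). Steer 1 was the highest of its diet in TIMP1, TIMP2 and TIMP3, and the last 2 differed by -0.05 and 0.32 within-diet SDs. All 5 genes were higher in supplemented steer 1 than in supplemented steer 2.

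Besides LAMB1, the basement membrane genes LAMC1, the laminin gamma 1 chain, and NID1, or nidogen 1, which joins laminin to type IV collagen, differed by 0.38 and 0.03 within-diet SDs. None of these 3 genes was lower in restricted steers with all animals or without supplemented steer 1, and 2 were without steer 2. Supplemented steer 2 was lowest in all 3, at -1.69 array SDs in LAMB1, -1.78 in LAMC1 and -1.43 in NID1. LAMC1 has 6 probe sets, of which 2 were higher and 4 lower in restricted steers. GSN, or gelsolin, which severs actin filaments and also has a secreted form, was at 1.22 and -1.50 in supplemented steers 1 and 2 and differed by 0.23 within-diet SDs. Of the 14 matrix genes with more than 1 probe set, 5 had probe sets in both directions, namely FN1, LAMC1, THBS1, TIMP1 and TIMP2.

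The balance of the set depended on these animals. Without supplemented steer 1, 8 of 37 genes had a lower mean in restricted steers (21.6%, beside 52.0% of all genes), with a median difference of 0.563 within-diet SDs. Without supplemented steer 2 the count was 29 (78.4%, beside 50.3% of all genes), with a median of -0.692. Genes whose direction turned numbered 13 without steer 1, among them FN1, POSTN, THBS1, DCN and LOX, and 10 without steer 2, among them SPARC, BGN, FBLN1, TIMP3 and LAMC1. None passed the adjusted threshold in either fit.

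At an unadjusted p under 0.05 there were 2 genes without supplemented steer 1, CCN2 and LAMB1, beside 4.53% of all probe sets. Without supplemented steer 2 there were 5, beside 4.63%. Lower in restricted steers were CCN2, by -5.60 within-diet SDs (limma unadjusted p = 0.00435), THBS4, by -3.45 (limma unadjusted p = 0.0200), and MFAP5, by -2.59 (limma unadjusted p = 0.0455). Higher were P4HA1, by 3.42 (limma unadjusted p = 0.0206), and LAMB1, by 3.12 (limma unadjusted p = 0.0270). The adjusted p was 1 in all 5. Groups did not overlap in 5 genes without steer 1, beside 18.9% of all probe sets, and in 10 without steer 2, beside 18.4%. Of these 10 genes 8 were lower in restricted steers, FN1, FBN1 and FMOD among them. Steer 2 was left out because it was low in this set, which raises the supplemented mean in the remaining fit wherever it was low. In CCN2 and P4HA1 it was the highest animal, and there leaving it out lowers that mean. These directions and p-values are therefore partly set by that choice. Leaving out steer 1 acts with the opposite sign in the genes where it was high.

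**Figure D3:**
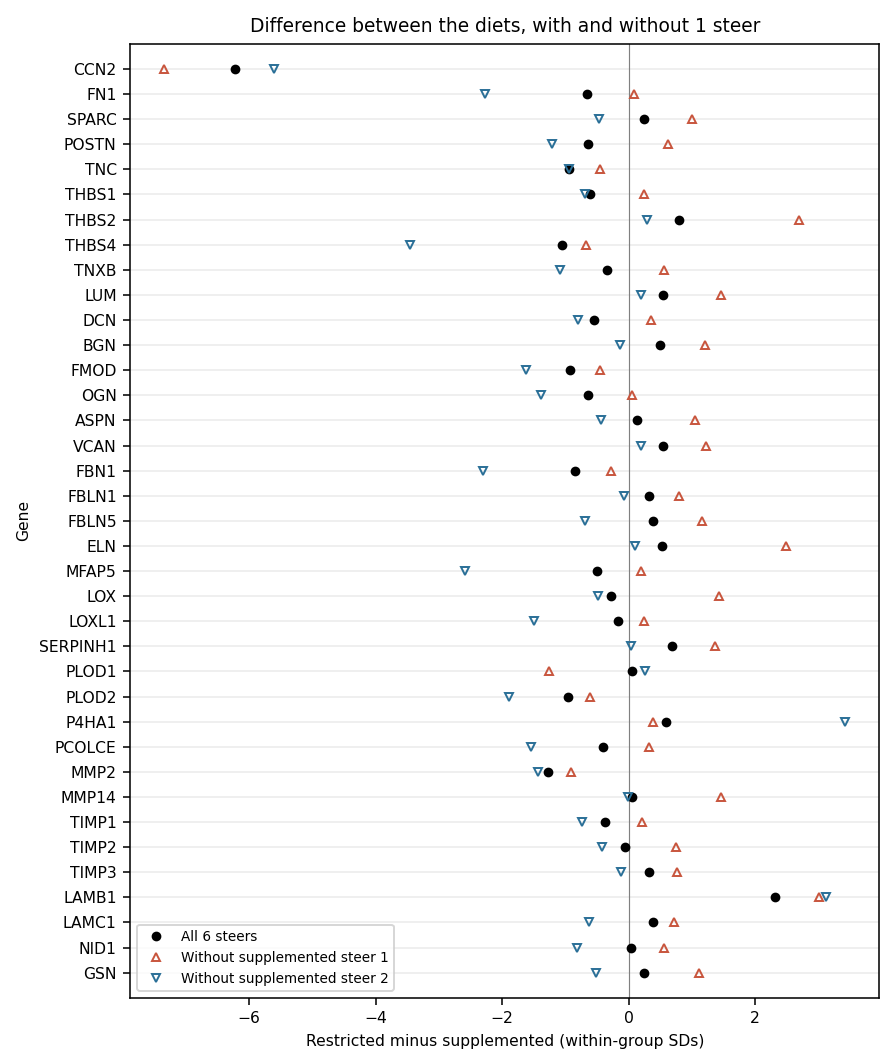
Difference between restricted and supplemented steers in within-diet SDs for the 37 matrix genes, with all 6 steers (black) and without supplemented steer 1 (red) or 2 (blue). Without steer 1, 8 genes lie below 0 and without steer 2, 29 do; CCN2 lies below -5 and LAMB1 above 2 in each fit.

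Matrix genes were also among the more variable ones of the table. The median range over the 6 arrays was 4.93e-05 log2 units over the 37 genes, beside 1.23e-06 over all genes. Ranges over 0.001 occurred in 10 of 37 genes (27.0%), beside 1.29% of all genes. The level of the set was higher too, 31 of 37 genes lying above the median level of all probe sets. POSTN, ASPN, PLOD2, LOX, MMP14 and TNC lay below it. Among genes above that level the shares were 32.3% of the matrix genes and 1.86% of all. FN1 had the rank 17 of 24016 probe sets by range, MFAP5 36 and SPARC 58, and at the other end THBS2 ranged over 5.70e-08. Of the 10 wide-ranging matrix genes 9 were highest in supplemented steer 1 and 6 lowest in steer 2. In the 108 other genes with a range over 0.001, 21.3% were highest in steer 1 and 43.5% lowest in steer 2, so that the low position of steer 2 occurred in many wide-ranging genes outside the set.

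**Figure D4:**
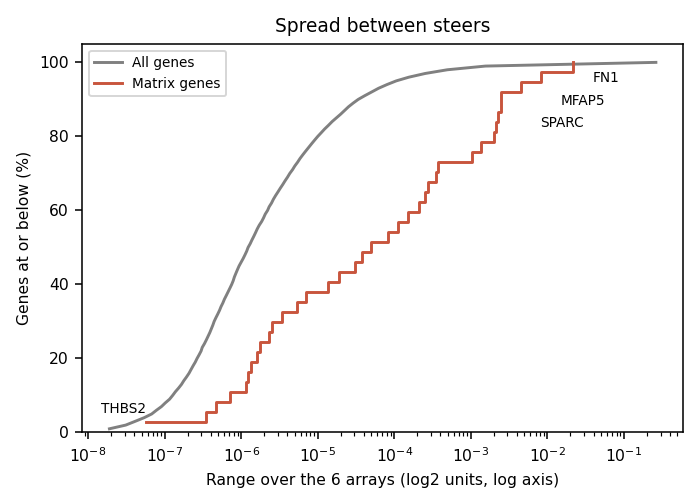
Cumulative share of genes (percent) by the range of their deposited value over the 6 arrays (log2 units, log axis), for the 37 matrix genes (red) and all 9155 genes (grey). The median is 4.93e-05 in matrix genes and 1.23e-06 in all genes.

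The list of connective tissue cell markers showed a similar order of animals, in large part through matrix genes that it holds itself. Of 10 measured markers of fibroblasts and fibro-adipogenic progenitors, supplemented steer 1 was highest in 6 and steer 2 lowest in 5, and 8 of 10 lay above the median level of all probe sets. COL1A1, COL1A2, COL3A1 and DPT among them are matrix genes, and each was highest in steer 1 and lowest in steer 2. Of the other markers, only PDGFRA and DCLK1 were highest in steer 1, and only DCLK1 was lowest in steer 2. Their score was -0.42 to 0.94 array SDs in supplemented and -0.62 to 0.15 in restricted steers. The collagens in that list had deviations of 1.80 (COL1A1), 1.82 (COL1A2) and 1.32 (COL3A1) in supplemented steer 1 and -0.94, -1.13 and -1.48 in supplemented steer 2. PDGFRA, the receptor that marks progenitors, was at 1.93 in supplemented steer 1 and -0.34 in steer 2. THY1 and TCF21 went the other way, at -0.46 and -1.05 in supplemented steer 1 and 1.47 and 0.78 in steer 2, their highest animal. CD34 was lower in restricted steers without overlap, by -2.65 within-diet SDs (unadjusted p = 0.0221). Markers of macrophages were highest in supplemented steer 1 as well, with a score of 1.32 there and -0.63 to 0.08 in the other supplemented steers. In restricted steers the score was -0.70 to -0.03. The groups did not overlap in 1 of 7 macrophage markers, lower in restricted steers, beside 8.76% of all probe sets.

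Adipocyte markers followed that order in part. Their score was lowest in supplemented steer 2 but highest in restricted steer 1, at 0.18, -0.87 and -0.81 in supplemented and 1.15, -0.32 and 0.68 in restricted steers 1, 2 and 3, with a higher mean in restricted steers for 7 of 7 genes. CFD, or adipsin, stood at -0.69, -0.64 and -1.33 array SDs in supplemented and 0.78, 0.95 and 0.92 in restricted steers. Its groups did not overlap, and it differed by 6.35 within-diet SDs (limma unadjusted p = 7.17e-04, adjusted p = 1). Endothelial scores lay between -0.50 and 0.10 in supplemented and -0.32 and 0.76 in restricted steers. Smooth muscle and pericyte scores lay between -0.52 and -0.43 in supplemented steers. In restricted steers 1, 2 and 3 they were 1.69, -0.15 and -0.13, all above the supplemented ones. The mean was higher in restricted steers for 6 of 6 of these genes. None had an unadjusted p under 0.05, and the groups overlapped in each gene. Red blood cell markers ran from -0.26 to 0.62 and from -1.18 to 0.45, and 1 of their 4 genes was above the median level. Of the tendon markers 1 of 3 was measured, TNMD, below the median level, at 1.08, -0.31 and 1.34 array SDs in supplemented and -0.18, -1.08 and -0.86 in restricted steers, a difference of -1.99 within-diet SDs (unadjusted p = 0.055). Muscle fibre scores lay between -0.13 and 0.57 in supplemented and -0.43 and 0.03 in restricted steers. The mean was lower in restricted steers for 7 of 9 fibre markers. MYH1 was lower without overlap, by -3.46 within-diet SDs (limma unadjusted p = 0.00836). Both measured Schwann cell markers were above the median level, with scores of -0.35 to 0.88 and -0.89 to 0.25. In 1 of these 2 the groups did not overlap, lower by -3.15 within-diet SDs at a limma unadjusted p under 0.05. None of these markers passed the adjusted threshold. The part of these cells in the matrix values was not tested.

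**Figure D5:**
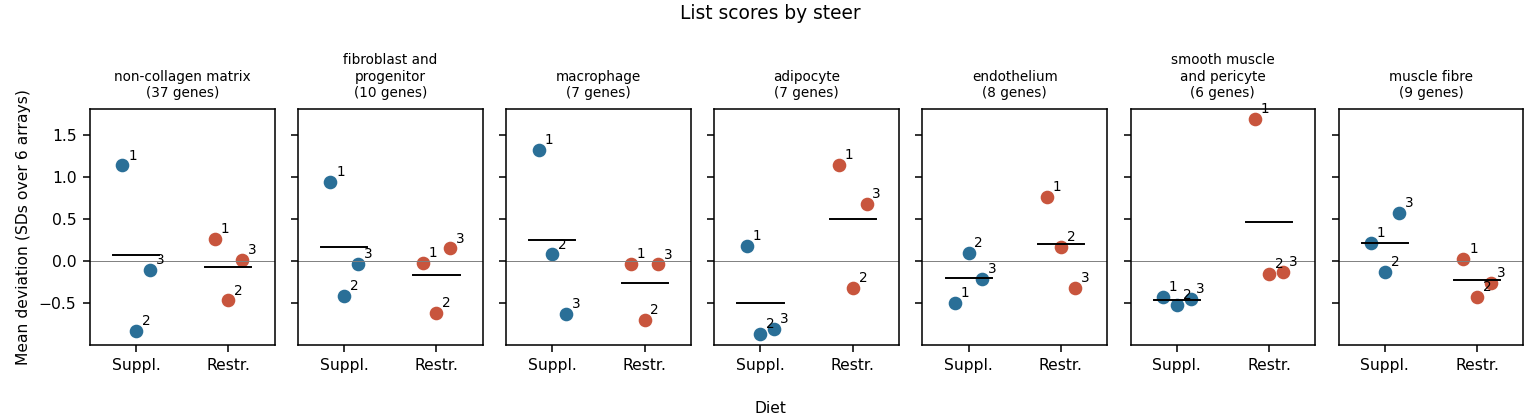
Mean deviation from the 6-array mean, in SDs over the 6 arrays, of the 37 matrix genes and of 6 lists of cell type markers in each steer, by diet; numbers are the steers and bars the mean of 3. Supplemented steer 1 is highest for the matrix (1.14), fibroblast (0.94) and macrophage (1.32) lists, and restricted steer 1 for adipocytes (1.15) and smooth muscle (1.69).

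Other genes of matrix biology were taken from lists chosen by name, with earlier results of these data known. Of 13 receptors and linkers of the matrix 10 were measured, 5 lower and 5 higher in restricted steers, with none at an unadjusted p under 0.05. ITGA7, the laminin-binding integrin chain of muscle fibres, was higher without overlap, by 1.10 within-diet SDs (unadjusted p = 0.218), restricted steer 2 being far above the rest at 2.01 array SDs. Of 17 genes of transforming growth factor beta and Hippo signalling 11 were measured, 9 lower and 2 higher, again with none at an unadjusted p under 0.05. The ligand TGFB1 differed by -1.57 within-diet SDs (unadjusted p = 0.121), TGFB2 by -0.52 and TGFB3 by 0.54. ANKRD1, a muscle gene that responds to strain, differed by 0.22.

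Of 46 further matrix and remodelling genes 36 were measured, 20 lower and 16 higher in restricted steers, and 2 were lower at an unadjusted p under 0.05, beside 2.17% of all probe sets. COMP, a pentameric thrombospondin of tendon and cartilage, stood at 1.12, 0.81 and 0.68 array SDs in supplemented and -0.49, -1.36 and -0.75 in restricted steers 1, 2 and 3. All restricted animals lay below all supplemented ones, with a difference of -4.92 within-diet SDs (limma unadjusted p = 0.00213, adjusted p = 1). ADAMTS2, the protease that removes the procollagen N-propeptide, stood at 1.16, 0.17 and 1.09 in supplemented and -0.96, -1.20 and -0.27 in restricted steers, a difference of -3.11 within-diet SDs (limma unadjusted p = 0.0126, adjusted p = 1). LAMB2, the laminin beta 2 chain, was also lower without overlap, by -1.75 within-diet SDs (unadjusted p = 0.0792). The probe set of ADAMTS2 lay below the median level of all probe sets. In the further matrix genes supplemented steer 1 was highest in 12 of 36 and steer 2 lowest in 8. Over the 3 lists 57 different genes were measured, of which 34 were lower, with a median of -0.144 within-diet SDs, and groups did not overlap in 7.02% of them, beside the 8.76% of all probe sets given above.

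The genes whose order of animals was most like that of CCN2, by Pearson's r over the 6 arrays among 6298 genes above the median level, were PEX10 (0.987), HK1 (0.977), PYGM (0.977), DHRS3 (0.966) and DDX20 (0.959). Their likeness to CCN2 fixes that they were also lower in restricted steers. In the same order their ranges over the 6 arrays were 1.09e-07, 8.37e-07, 4.20e-05, 4.53e-04 and 6.54e-07 log2 units, beside 8.28e-05 in CCN2. PEX10, HK1 and DDX20 thus varied far less than CCN2. DHRS3, a retinal reductase, is the 1 probe set of the array past the adjusted threshold (limma adjusted p = 7.94e-04). Within the matrix set r with CCN2 ran from -0.85 in LAMB1 to 0.46 in MMP2, and was 0.23 in FN1 and 0.16 in DCN. With 6 arrays such values are descriptions, and the genes share their RNA samples.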

How the data were processed

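The authors' deposited table holds 1 value per probe set and array for 24128 probe sets of a 3 prime expression array of the GeneChip type. The labels' protocols give 100 ng of total RNA, isolated with Trizol and RNeasy columns, as the start of labelling. The deposited values were taken as log2 from their range; for the log base, normalization and summarization no label or header gives a method. They were used unchanged.

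After removal of 112 control probe sets, 24016 entered lmFit and eBayes of limma 3.58.1 (R 4.3.3; no trend, prior 0.483 and residual 4 degrees of freedom), with Benjamini-Hochberg adjustment over all of them and a threshold of 0.05. The fit was tested on simulated data. Symbols came from the platform annotation; 13292 probe sets had 1 symbol, and all 37 measured matrix genes matched the current RefSeq symbol (ARS-UCD2.0) of their gene identifier. Arrays give no molecule count, and their number limits precision. Each sample is labelled as a separate steer.

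Array medians differed by 8.88e-06, but 2 probe sets supply them on all arrays, one of them with a range of 1.77e-05. The median deviation from the probe set means, which differed by 1.37e-08, was therefore used to align arrays as an alternative. Other alternatives were age as a covariate, the replicate number as a block, a trend in the variances, a filter on level, averaging the probe sets of each gene, and each steer left out.

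Values by steer are given for matrix genes of the set with an unadjusted p under 0.05 or without overlap, for members named by role, and for others picked after their values were seen (POSTN, THBS4, FMOD, MFAP5, COMP, ADAMTS2, CFD and single values). Genes, lists and tests were chosen with earlier results of these data known. Promoter motifs were not analysed here.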

Additional observations from a re-analysis of the deposited data

How the results depend on the processing

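The count of matrix genes past the adjusted limma threshold was 0 in the fit as planned and in all 11 alternatives that give a p-value. The number with a lower mean in restricted steers ran from 8 to 29 when single steers were left out, against 19 with all. With age as a covariate it was 27 of 37, beside 47.5% of all genes. The median difference in that fit was -0.790 SDs left after diet and age, a unit unlike the within-diet SDs. Genes at an unadjusted p under 0.05 numbered 1 to 5 and genes without overlap 2 to 10 with a steer left out, against 2 and 2. The largest counts, without supplemented steer 2, stood beside 4.63% and 18.4% of all probe sets. With all steers these shares were 4.08% and 8.76%. In the fit with age as a covariate 1 gene had an unadjusted p under 0.05, beside 4.09% of all probe sets. The cause of these shifts was not tested.

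With age as a covariate 8 of 37 genes turned, all to lower: SPARC (-0.156 SDs left after diet and age), THBS2, ASPN, FBLN1, FBLN5, MMP14, NID1 and GSN. Of the 14 genes given by steer under the rule, leaving out single steers gave ranges across 0 in DCN (-0.980 to 0.356), FN1 (-2.27 to 0.0794), LOX (-0.920 to 1.42), SPARC (-0.467 to 0.995), THBS1 (-1.46 to 0.247) and TIMP1 (-1.11 to 0.214). Aligning the arrays, a trend in the variances and the filter on level turned no matrix gene, and averaging the probe sets of each gene turned TIMP2 and LAMC1. The filter kept 31 genes.

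The labels number the steers 1 to 3 in each diet and name nothing that they share. Deviations of same-numbered steers correlated at 0.037, 0.015 and 0.015. With the number as a replicate block, the fit kept fewer residual degrees of freedom than the 4 of the main fit. No share of all probe sets is given for it, so it is not read as a result about the set. Unadjusted p-values under 0.05 were those of CCN2 at -7.10 (limma unadjusted p = 0.00487), TIMP1 at -5.63 (limma unadjusted p = 0.0126) and PLOD2 at -17 (limma unadjusted p = 0.0247). These sizes are in SDs left after the block, not in within-diet SDs. Each number occurs once in each diet, so the block leaves the differences themselves unchanged and alters only the SD. Without the block, CCN2 differed by -6.22, TIMP1 by -0.38 and PLOD2 by -0.96 within-diet SDs. LAMB1 was no longer under 0.05, at 1.87 SDs left after the block (limma unadjusted p = 0.101). The adjusted p in this fit was 0.928 for CCN2 and 1 for the other genes.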
